A study of Drosophila melanogaster with 8 samples.

Results

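The genes described here encode the subunits of RNA polymerase II (Pol II) in Drosophila melanogaster. They were chosen by symbol, Polr2A to Polr2L, which gave 12 of 15941 protein coding and lncRNA genes of the Release 6 annotation. Terminal tracheal cells, the branched cells that carry air to the adult midgut, had been assayed for Pol II occupancy by targeted DamID. In this method a DNA adenine methyltransferase (Dam) is fused to Pol II and expressed in chosen cells, and the GATC sites it methylates are read by sequencing, with free Dam as the background. Flies in the Pe group were fed sucrose with a solution of Pe bacteria for 16 hours, which the labels describe as damaging the intestine, and flies in the Suc group were fed sucrose alone. All flies were w- and carried dSRF-GAL4, UAS-CD8GFP and tub-GAL80ts, with UAS-LT3-Dam-Pol II in the Dam-Pol II libraries and UAS-LT3-Dam in the Dam libraries. The flies were raised and aged for 7 days at 18 °C and kept at 29 °C for 24 hours to express Dam. Each of the 8 libraries, 2 for each construct in each condition, came from whole midguts with their tracheal cells, 60 per condition and replicate. The tissue therefore also held the other midgut cells. By design, expression of Dam was to be restricted to tracheal cells by the dSRF enhancer and to the adult by tub-GAL80ts.

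Pol II is the enzyme that transcribes protein coding genes and many noncoding RNAs. Its large subunits Polr2A and Polr2B form the catalytic cleft, and the tail of Polr2A is phosphorylated as the enzyme moves from the promoter into elongation. The smaller subunits build the assembly platform, the jaws and the stalk around that core, and Polr2E, Polr2F, Polr2H, Polr2K and Polr2L are also built into Pol I and Pol III. Tracheal and gut cells alike use Pol II. The labels do not name the subunit fused to Dam, and targeted DamID constructs commonly carry the largest, Polr2A. Reads from a transgene that carries a subunit's sequence map to the native gene of that subunit, so signal inside a subunit gene was compared with signal in its flanks.

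The libraries were combined by the authors into 4 profiles, 2 from Pe and 2 from Suc, which hold a value for each of 383654 nuclear GATC fragments. The values were read as the log2 of Dam-Pol II signal over Dam signal. A gene's value averages the fragments it overlaps, weighted by the length of the overlap, and a gene was tested where it overlapped at least 3 fragments. The 4 profiles differed in spread, with a 95th percentile of gene values of 1.24 and 1.48 in the Pe profiles and of 1.33 and 2.06 in the Suc profiles. Gene values of Pe replicate 1 correlated more closely with Suc replicate 1 (r = 0.918, across genes) than with Pe replicate 2 (r = 0.833), and Pe replicate 2 correlated with Suc replicate 1 at 0.745. The 8 markers of tracheal cells summed to 3.47 and -0.13 in the Pe profiles, against 6.23 and 7.76 in the Suc profiles, and 1 was called occupied in Pe and 5 in Suc. The 11 markers of enterocytes, the absorptive gut cells, summed to 7.45 and 3.08 in Pe and to 13.1 and 12.6 in Suc. Of these, 2 were called in Pe and 7 in Suc. Per gene, the enterocyte markers averaged 0.68 and 0.28 in Pe and 1.19 and 1.14 in Suc. The tracheal markers averaged 0.43 and -0.02 in Pe and 0.78 and 0.97 in Suc. The 2 tested markers of stem cells and enteroblasts summed to 0.58 and -0.05 in Pe and to 1.97 and 2.34 in Suc. Both were called in Suc alone, but 1 of the 2 is also counted among the tracheal markers. The 5 markers of visceral muscle ranged in sum from 0.24 to 2.45 in Pe and from 2.04 to 2.21 in Suc, with 2 called in Suc. Markers of enteroendocrine cells and haemocytes were near 0 in every profile and none was called. Beside these marker counts, 7.47% of all genes tested were called in Pe and 21.3% in Suc. The part of these cell types in the values of the subunit genes was not tested.

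The signal of Dam-Pol II over Dam at the subunit genes ranged from close to background to among the highest of all genes. Polr2A stood apart at about 2.1 on the log2 scale, Polr2I and Polr2G lay near 1, and Polr2B, whose product is the partner of Polr2A in the catalytic core, lay close to 0. Of the 12 genes, 10 had values above 0 in all 4 profiles, and the exceptions were Polr2B and Polr2F, each below 0 in Suc replicate 1. The median over the 11 tested subunit genes was 0.54 in Pe and 0.54 in Suc, against 0.07 in Pe and 0.04 in Suc over all 13998 genes tested. A gene was called occupied where limma put its condition mean above 0 with an adjusted p under 0.05 over all genes tested. At a subunit gene such a call cannot tell Pol II on the native gene from reads of a transgene. In Pe 3 of 11 subunit genes were called, Polr2A, Polr2G and Polr2H, beside 7.47% of all genes tested. In Suc 6 of 11 were called, Polr2A, Polr2G, Polr2H, Polr2I, Polr2J and Polr2L, beside 21.3% of all genes. The count in Pe was 0 when either Pe profile was left out and 8 when either Suc profile was, beside 0 and 3320 of the 13998 genes under the same settings and 1046 with all profiles. The count in Suc was 0 when either Pe profile was left out, beside 0 of all genes, 0 without Suc replicate 2, beside 860, and 6 without Suc replicate 1, beside 3953, where all profiles gave 2975. With a profile of 1 condition left out, the spread comes from the 2 profiles of the other condition alone. The result for that other condition is then the same whichever profile is left out, so these are not separate checks. In these whole-tissue profiles more labelled cells and more occupancy per cell cannot be told apart.

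**Figure D1:**
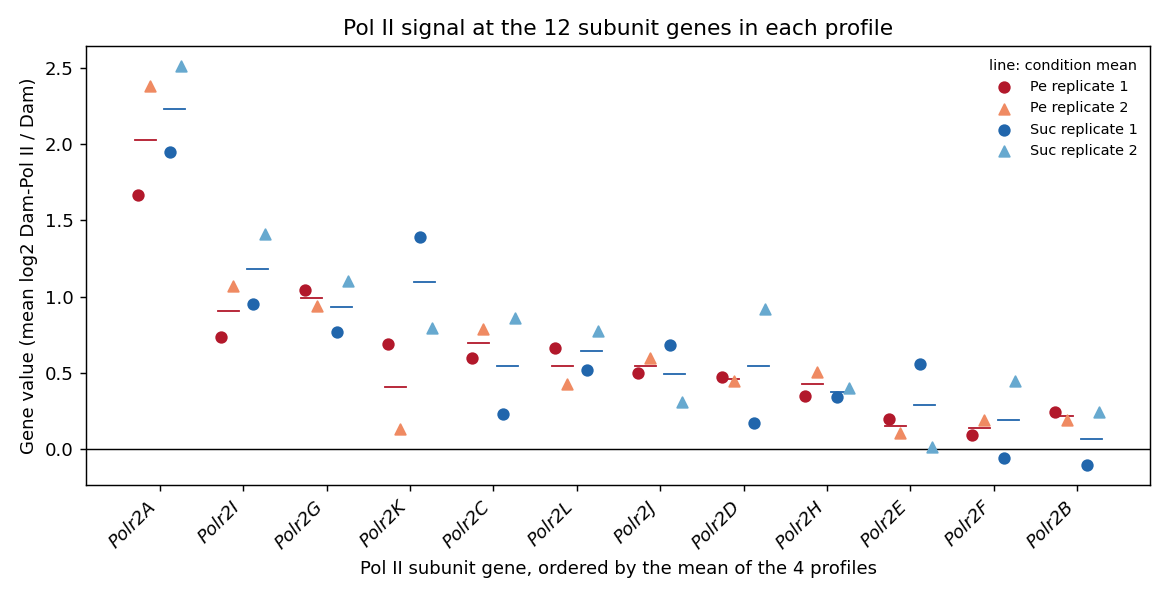
Gene value (mean log2 of Dam-Pol II signal over Dam signal, y axis) of the 12 Pol II subunit genes, ordered by the mean of the 4 profiles. Points are profiles and lines are condition means. Polr2A is the highest gene in all 4 profiles and is separated from Polr2I, the next gene, by 1.09 on average.

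Polr2A (CG1554) encodes the largest subunit and its phosphorylated tail. It spans 7527 bp at X:11562800-11570326 and overlaps 55 GATC fragments, 53 of them in no other gene. Its log2 values were 1.67 and 2.38 in Pe and 1.95 and 2.52 in Suc. In both conditions replicate 2 was the higher, and the conditions overlapped. The means were 2.03 ± 0.50 in Pe and 2.23 ± 0.40 in Suc (SD, n = 2 each), with limma adjusted p-values against 0 of 0.0457 in Pe and 0.0232 in Suc. Over the mean of the 4 profiles Polr2A ranked 161 of 13998 genes, and 1.15% of genes were at or above it. Without Pe replicate 1 its Pe value was 2.38 and without Pe replicate 2 it was 1.67, and neither was called. With fragments of 1 gene only it was 2.10 in Pe and not called (limma adjusted p = 0.0528). Its Suc value stood at 1.95 without Suc replicate 2, also not called, and at 2.23 but not called when either Pe profile was left out (limma adjusted p = 0.0930).

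A value as high as that of Polr2A was uncommon in every class of gene length. It was reached by 47 of 2418 tested genes under 1 kb and 60 of 3963 of 1 to 2 kb. Of genes of 2 to 5 kb 39 of 4045 reached it, and of those above 10 kb 2 of 2031. Among genes of 5 to 10 kb, 1541 were tested, their median over the 4 profiles was 0.06 and their 95th percentile 1.44, and 13 genes including Polr2A reached its value of 2.13. Among the 1307 genes with at least 50 fragments, a minimum chosen after the values were seen, Polr2A ranked 3, behind CG46310 at 2.44 and CG4928 at 2.21. Gene length itself did not order the subunit genes, with a Spearman rho of 0.084 between length and value over the 12 genes, given as a description. The 5 genes nearest to Polr2A by Euclidean distance over the 4 gene values were Npc2a, a sterol-binding protein gene (distance 0.172), lncRNA:CR42491 (0.207), Ugt35C1, a glycosyltransferase gene (0.273), noc, which encodes a zinc finger protein of tracheal and head development (0.281), and fkh, the forkhead factor of gut and salivary gland (0.285). Npc2a, for example, had 1.60 and 2.41 in Pe and 1.82 and 2.59 in Suc.

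Polr2B (CG3180, 3R:14125791-14130111) encodes the other large subunit of the catalytic core. Its values were 0.24 and 0.19 in Pe and -0.11 and 0.24 in Suc. All 4 averages over the gene lay close to background, and Suc replicate 1 was below it. The 1 kb inside its left end was higher, with 0.79 and 1.21 in Pe and 0.33 and 0.74 in Suc. That window was chosen after the data were seen and was not tested. Over the whole gene the means were 0.22 ± 0.04 in Pe and 0.06 ± 0.25 in Suc (SD, n = 2 each), not called in either condition, although Polr2B is 4321 bp long and overlaps 37 fragments. Genes of the large subunits of Pol I and Pol III were low as well. Polr1A, for the largest subunit of Pol I, averaged -0.01 in Pe and -0.11 in Suc, and Polr3A, its Pol III counterpart, 0.13 in Pe and 0.16 in Suc. The partner gene Polr1B averaged -0.12 in Pe and -0.14 in Suc, and Polr3B 0.02 in Pe and -0.01 in Suc. These 4 were picked for the comparison after their values were seen.

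Polr2C and Polr2J pair with each other in the assembly platform of the enzyme. Polr2C (CG7885, 2L:13833337-13834306) had 0.60 and 0.79 in Pe and 0.23 and 0.86 in Suc, with the Suc values on either side of the Pe values. It was not called, and it shares 57 bp with mRpS23, a mitochondrial ribosomal protein gene whose own value averaged 1.07 in Pe and 1.42 in Suc. Polr2J (CG6840, 2L:17409698-17410406) had 0.50 and 0.60 in Pe and 0.68 and 0.30 in Suc. It was called in Suc (limma adjusted p = 0.0490) and not in Pe (0.0603), while its mean was 0.55 ± 0.07 in Pe and 0.49 ± 0.27 in Suc (SD, n = 2 each), so the calls do not show a difference between the conditions. It shares 1 bp at its left end with CLIP-190, a gene for a microtubule-binding protein, which averaged 1.13 in Pe and 1.39 in Suc over its whole length. With fragments of 1 gene only, Polr2J had 0.29 in Pe and 0.24 in Suc and was called in neither.

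Polr2D and Polr2G form the stalk, which contacts the emerging RNA. Polr2G (CG31155, 3R:15222251-15223180) had 1.04 and 0.94 in Pe and 0.76 and 1.10 in Suc. The Pe values lay between the Suc values, and means of 0.99 ± 0.07 in Pe and 0.93 ± 0.24 in Suc (SD, n = 2 each) were called in both conditions, with limma adjusted p-values of 0.0457 in Pe and 0.0233 in Suc. It shares 121 bp with CG12241, which averaged 0.46 in Pe and 0.32 in Suc. With fragments of 1 gene only, Polr2G had 1.68 in Pe, which was not called (limma adjusted p = 0.0528), and 1.77 in Suc, which was. Polr2D (CG43662, 3R:18252843-18255487) had 0.47 and 0.44 in Pe and 0.17 and 0.92 in Suc, again with the Pe values between the Suc values, and was not called. It has the same coordinates as Ada2a, which encodes an adaptor of histone acetyltransferase complexes, so all of its 11 fragments are shared and the 2 genes cannot be told apart. The stalk partners thus differed in level, with Polr2G above Polr2D in all 4 profiles.

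Polr2I (CG3284, 3R:14309089-14310178), a jaw subunit that acts in transcript cleavage and fidelity, had 0.74 and 1.07 in Pe and 0.95 and 1.41 in Suc. The ranges overlapped, with replicate 2 the higher in each condition. Its means were 0.90 ± 0.23 in Pe and 1.18 ± 0.33 in Suc (SD, n = 2 each), and it was called in Suc (limma adjusted p = 0.0260) and not in Pe (0.0519). Its 6 fragments overlap no other gene.

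The 5 subunits shared with Pol I and Pol III had lower medians, 0.41 in Pe and 0.37 in Suc, than the 7 found in Pol II alone, 0.69 in Pe and 0.54 in Suc, and the ranges of the classes overlapped. The 5 include Polr2K, which overlaps 2 fragments and was not tested, and the median of 0.41 in Pe is the value of that gene. Polr2H (CG11246, 3L:21728932-21729694), a small core subunit, had 0.34 and 0.50 in Pe and 0.34 and 0.40 in Suc. It was called in both conditions despite a low level, with limma adjusted p-values of 0.0487 in Pe and 0.0346 in Suc, and its 4 values lay close together. With fragments of 1 gene only it was 0.42 in Pe and not called (limma adjusted p = 0.0559). Polr2L (CG13628, 3R:24717511-24717998), a small zinc-binding subunit of the assembly platform, had 0.66 and 0.43 in Pe and 0.51 and 0.77 in Suc, over 4 fragments of which 3 are shared with another gene. It was called in Suc (limma adjusted p = 0.0300) and not in Pe (0.0568).

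Polr2E and Polr2F were near background. Polr2E (CG11979, 2R:10898031-10899060), a jaw subunit that contacts the DNA ahead of the enzyme, had 0.19 and 0.10 in Pe and 0.56 and 0.01 in Suc. Polr2F (CG1163, 3R:5371795-5372397), which helps to hold the large subunits together, had 0.09 and 0.19 in Pe and -0.06 and 0.44 in Suc. At both genes the Suc profiles lay on either side of the Pe profiles, and neither was called. Polr2K (CG34186, 2R:15144968-15145519), a small zinc-binding subunit, overlaps 2 fragments and was not tested. Its values were 0.69 and 0.13 in Pe and 1.39 and 0.80 in Suc, both Pe profiles below both Suc profiles.

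In order of the mean over the 4 profiles the genes ran Polr2A, Polr2I, Polr2G, Polr2K, Polr2C, Polr2L, Polr2J, Polr2D, Polr2H, Polr2E, Polr2F and Polr2B. The step from Polr2A to Polr2I was 1.09, between 0.93 and 1.32 in the 4 profiles. No other gene stood above its next neighbour in all 4 profiles, so the order below Polr2A is not resolved step by step.

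Feeding Pe did not detectably change the signal at the subunit genes with 2 profiles per condition. In limma 0 of the 11 tested genes were higher and 0 lower in Pe than in Suc, beside 0% and 0% of all 13998 genes. The smallest adjusted p among the 11 genes was 0.901 and the smallest unadjusted p 0.305. Over all genes 546 (3.90%) had an unadjusted p under 0.05, and 0 of the subunit genes were among them. The differences, Pe minus Suc, were positive at 5 genes and negative at 6, between -0.28 (SE 0.23) at Polr2I and 0.15 (SE 0.15) at Polr2B. Polr2A differed by -0.21 (SE 0.36), and the largest standard error of the 11 genes was its own. That sign depended on the scaling, with 0.19 after quantile normalization and 0.55 after median and MAD scaling. Polr2K was the sole subunit gene whose conditions did not overlap, with both Pe profiles lower and a difference of -0.69, beside 14.0% of all tested genes with both Pe profiles lower and 23.0% with both higher.

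**Figure D2:**
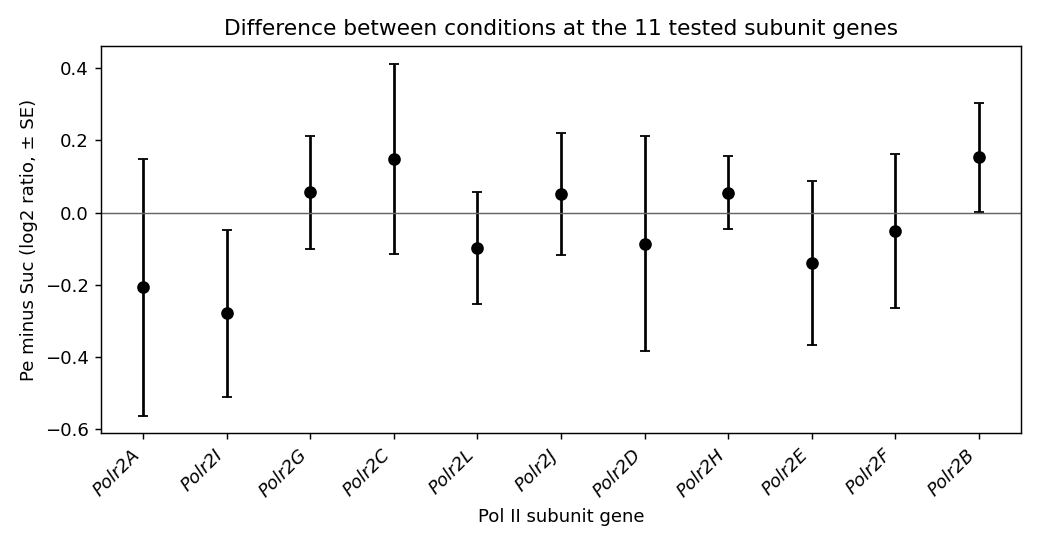
Difference between Pe and Suc (Pe minus Suc, log2 ratio, y axis) at the 11 tested subunit genes, with bars of 1 standard error from limma. The values lie between -0.28 at Polr2I and 0.15 at Polr2B, and 0 genes passed the test.

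Signal inside each gene was next compared with its surroundings. Fragments wholly inside the gene were set against fragments wholly outside it and within 2 kb of either end, left being the lower coordinate, and fragments crossing an end counted in neither. Over both conditions 4 of the 9 testable subunit genes were above the mean of their flanks in limma, Polr2A, Polr2G, Polr2I and Polr2J, beside 13.4% of the 9294 genes tested. The median of the 9 genes was -0.05, against -0.03 for all genes, since the other 5 lay below their flanks, from -0.05 at Polr2D to -0.57 at Polr2C. With fragments that cross a gene's end counted as inside, Polr2D, Polr2E and Polr2H turned to 0.26, 0.067 and 0.45. Polr2B had no fragment in its right flank, and Polr2K and Polr2L had too few inside fragments. The count of 4 was 1 without Pe replicate 1, 0 without Pe replicate 2 and 2 when either Suc profile was left out. With flanks of 1 kb, 1 of 5 testable genes was called, Polr2G.

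Inside Polr2A the mean log2 ratio was 1.70 and 2.50 in Pe and 1.97 and 2.50 in Suc. Its left flank had 1.33 and 0.76 in Pe and 1.31 and 2.68 in Suc, and its right flank 0.88 and 0.64 in Pe and 1.14 and 1.33 in Suc. The inside was the higher against the right flank in all 4 profiles and against the left flank in 3, with Suc replicate 2 higher on the left than inside. Inside minus the mean of the flanks was 0.60 and 1.80 in Pe and 0.75 and 0.50 in Suc, 0.91 in all (SE 0.22, limma adjusted p = 0.0460). Leaving out Pe replicate 2 gave 0.61, leaving out Suc replicate 1 gave 0.85 and leaving out Suc replicate 2 gave 0.97, none of them called, while leaving out Pe replicate 1 gave 1.21, which was called. Taken alone, the difference from the right flank was 1.17 (limma adjusted p = 0.0271) and that from the left flank 0.65 (0.173). The difference between Pe and Suc in this contrast was 0.57 (limma adjusted p = 0.777).

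The excess at Polr2A was large but shared by other genes. Of the 9294 genes 5.08% were at or above 0.91, close to the 95th percentile of all genes. Among the 5118 genes with at least 10 inside fragments, Polr2A ranked 179, with 3.50% at or above it. The largest excess in that set was 2.26 at Cth, which encodes cystathionine gamma-lyase, followed by stas, CG8668, Gpdh1 (glycerol-3-phosphate dehydrogenase), D, Indy (a citrate transporter), CG31705, omd, eyg and mtd, at 1.74.

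**Figure D3:**
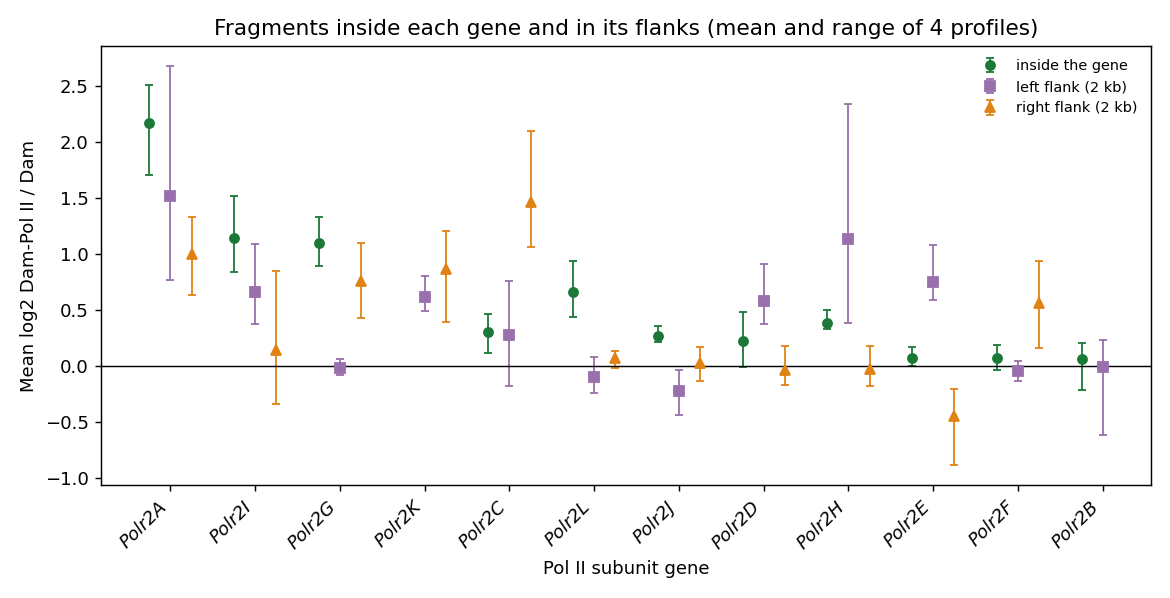
Mean log2 of Dam-Pol II signal over Dam signal (y axis) of fragments inside each subunit gene and in its left and right 2 kb flanks. Symbols are the mean and bars the range of the 4 profiles. Polr2A is high inside, at 2.17, and raised in both flanks, at 1.52 on the left and 1.0 on the right.

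Polr2G, Polr2I and Polr2J showed smaller excesses over their flanks. Polr2G averaged 1.10 inside, -0.02 on the left and 0.76 on the right over the 4 profiles. The excess over both flanks was 0.73 (SE 0.07, limma adjusted p = 0.00852), and its left side alone was called, with 1.11 (0.00998), against 0.34 on the right (0.0554). Polr2I averaged 1.14 inside, 0.66 on the left and 0.15 on the right, an excess of 0.74 (SE 0.11, limma adjusted p = 0.0173), called against the right flank (1.0, 0.0299) and not against the left (0.48, 0.0537). With 1 kb flanks its excess was 0.30 and not called. Polr2J averaged 0.26 inside, -0.22 on the left and 0.02 on the right, an excess of 0.36 (SE 0.08, limma adjusted p = 0.0342) that was called against the left flank alone and was -0.01 with 1 kb flanks. Taken separately, 2 of the 9 genes were called against the left flank, beside 16.2% of all genes, and 2 against the right, beside 14.7%. None was called against both, beside 5.80% of all genes. Of the 9 genes, Polr2G and Polr2J exceeded both flanks in all 4 profiles, beside 11.0% of all genes, and Polr2A did not. Polr2L, not tested with its 2 inside fragments, also lay above both flanks in all 4 profiles. Its inside had 0.67 and 0.44 in Pe and 0.59 and 0.94 in Suc. Its left flank had 0.08 and -0.24 in Pe and -0.09 and -0.13 in Suc. Its right flank had 0.13 and 0.10 in Pe and -0.02 and 0.09 in Suc.

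At Polr2C, Polr2E and Polr2H a flank stood well above the gene. The right flank of Polr2C averaged 1.46, toward mRpS23, against 0.30 inside. The left flank of Polr2E averaged 0.75 and its right flank -0.45, against 0.07 inside. The left flank of Polr2H averaged 1.13, of which Suc replicate 2 had 2.34, against 0.38 inside. Every subunit gene had another gene overlapping it or within 2 kb, and 6 of the 12 were overlapped by another gene.

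By fragment, 21 of the 53 fragments inside Polr2A were occupied over the mean of the conditions (limma, adjusted p under 0.05 over 338828 fragments), beside 5.40% of all fragments. In its left flank 3 of 13 fragments were called, the 3 nearest to the gene, and in its right flank 2 of 7 tested. Inside Polr2B 0 of 35 fragments were called, while the fragment crossing its left end was (limma adjusted p = 0.0486). Inside Polr2A short fragments read lower: the 36 under 100 bp had a median of 1.18, and the 17 of at least 100 bp had a median of 2.19, ranging from 1.07 to 3.82, with 11 called. Adjacent fragments correlated at 0.81 to 0.86, so these counts are not of independent measurements. With any of the 4 profiles left out, 0 fragments inside Polr2A were called.

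The signal along Polr2A was uneven. With the gene split into 3 stretches of equal length, the left averaged 2.32 in Pe and 2.47 in Suc, the middle 2.58 in Pe and 2.70 in Suc, and the right 1.18 in Pe and 1.53 in Suc. The highest 500 bp bin lay 4000 to 4500 bp from the lower coordinate, with 3.16 and 4.53 in Pe and 3.53 and 4.01 in Suc. A fragment of 775 bp fills most of that bin and was the highest of the gene in the mean of the 4 profiles. Bins with a mean of at least 1 ran without a break from 2000 bp before the gene to 1474 bp past its right end. The profiles differed on the left. In the 2 bins from 2000 to 1000 bp before the gene Pe replicate 2 had 0.55 and 0.49, and Suc replicate 2 had 3.02 and 3.20. The raised block reached into PGRP-SA, a peptidoglycan receptor gene that lies 21 bp to the left and averaged 1.21 in Pe and 1.79 in Suc, and CG11699, which lies 295 bp to the right and averaged 1.03 in Pe and 1.75 in Suc. Kmn1, a kinetochore protein gene 1057 bp to the right, averaged 0.59 in Pe and 0.66 in Suc.

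The ends of Polr2A were examined in windows of 1 kb, chosen after the data were seen and given without a test. Unlike in the flank contrast, a fragment crossing an end counted on both sides, which draws the sides together. Such a fragment is 281 bp long at the left end and 800 bp at the right end. At the left end the log2 ratio was 1.60 and 1.99 in Pe and 2.06 and 2.22 in Suc inside, against 1.38 and 1.18 in Pe and 1.38 and 2.07 in Suc outside. The step was positive in all 4 profiles, from 0.15 to 0.82. So was the left step at Polr2B (0.29 to 0.51), Polr2G (0.77 to 1.17), Polr2J (0.0040 to 0.78) and Polr2L (0.33 to 0.79), and at no other subunit gene. At the right end of Polr2A the log2 ratio was 1.09 and 1.27 in Pe and 1.48 and 1.67 in Suc inside, against 1.14 and 0.75 in Pe and 1.5 and 2.49 in Suc outside. The step there averaged -0.09 and was positive in Pe replicate 2 alone. The right step was positive in all 4 profiles at Polr2D, Polr2E, Polr2G, Polr2H, Polr2I and Polr2L. The right stretch of Polr2A thus lay near the level of its surroundings, and the left and middle stretches lay above it. In the mean of the 4 profiles the signal continued past both ends. Reads of a transgene and of the native gene cannot be told apart in these profiles.

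**Figure D4:**
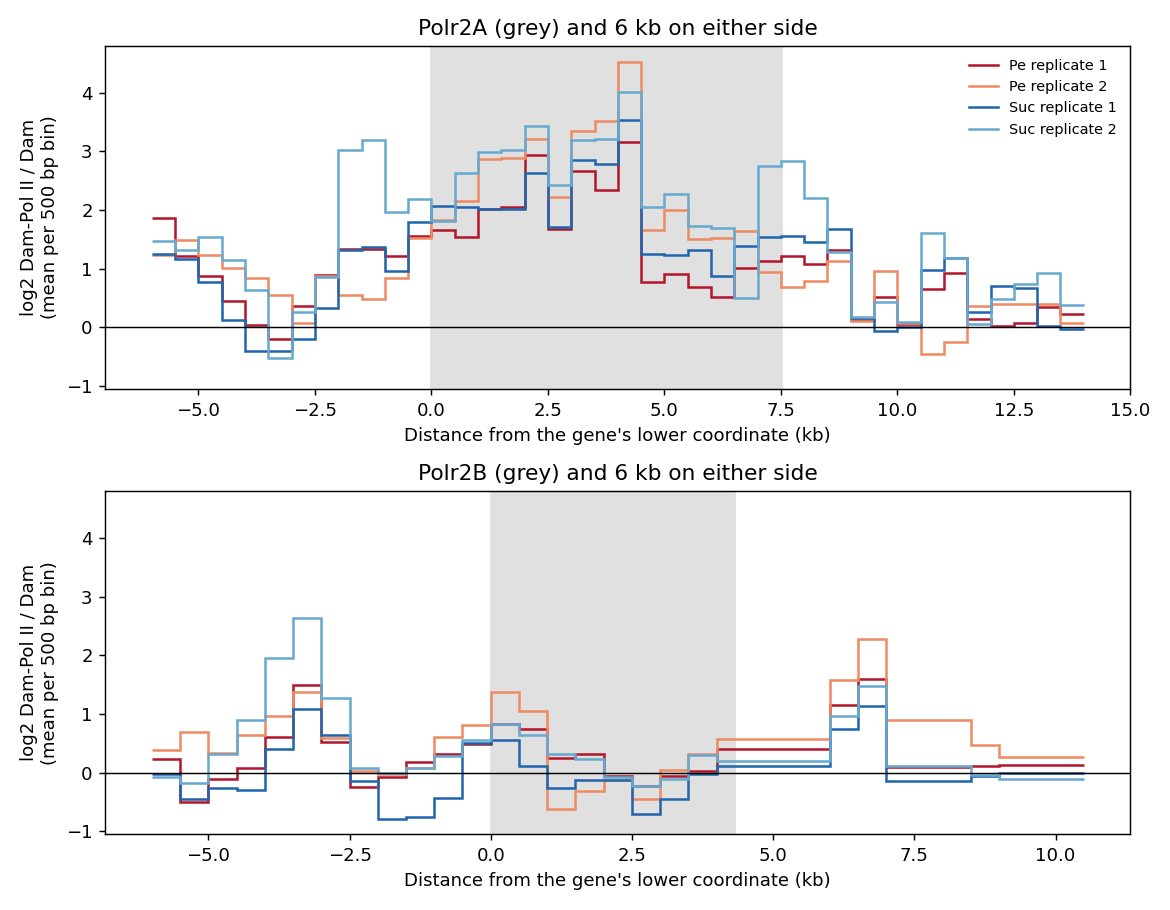
Mean log2 of Dam-Pol II signal over Dam signal in 500 bp bins (y axis) along Polr2A and Polr2B (grey) and 6 kb on either side, by distance from the gene's lower coordinate in kb (x axis). Lines are profiles. All 4 profiles peak 4000 to 4500 bp into Polr2A and their mean stays at or above 1 for 1474 bp past its right end, while Polr2B lies near 0 over most of its length.

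Other genes of the transcription machinery give the scale for these values. The genes were taken from lists of Pol I, Pol III and Pol II cofactor genes. In Suc the medians of Pol III genes (0.60), basal factors (0.60), Mediator (0.68) and phosphatases of the Polr2A tail (0.58) were above the 0.54 of the subunit genes. The other lists were below it in Suc. In Pe every list was below the 0.54 of the subunit genes, from 0.10 for pausing and elongation to 0.52 for the phosphatases. After adjustment over all genes, 0 genes of any list differed between Pe and Suc. For the lists here and below, the share called occupied over all genes tested was 7.47% in Pe and 21.3% in Suc. The 7 Pol I genes held 0 calls in Pe and 1 in Suc, and their highest and lowest members were Polr1E, at 0.51 in Pe and 0.77 in Suc, and Polr1B. The 10 Pol III genes held 0 calls in Pe and 5 in Suc, with Polr3I the highest at 1.09 in Pe and 1.14 in Suc. Among 9 basal factor genes there was 1 call in Pe and there were 4 in Suc. The call in Pe was TfIIFalpha, a subunit of the factor that escorts Pol II to promoters, at 1.08 in Pe and 0.75 in Suc. The 10 genes of TFIIH, which opens the promoter and phosphorylates the Polr2A tail, held 0 calls in Pe and 2 in Suc. They ran from CycH at 1.39 in Pe and 1.80 in Suc to Cdk7 at 0.04 in Pe and -0.36 in Suc, although both proteins belong to the kinase part of the complex. The 12 tested TFIID genes held 1 call in Pe and 4 in Suc, with Taf12 the highest at 1.36 in Pe and 1.2 in Suc.

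Mediator, the coactivator that bridges enhancer-bound factors and Pol II, had 5 of 28 tested genes called in Pe and 11 in Suc. Its median was 0.39 in Pe and 0.68 in Suc. Its highest member, MED9, had 1.92 in Pe and 1.66 in Suc. The 21 pausing and elongation genes held 1 call in Pe and 4 in Suc. The call in Pe was Nelf-E, a subunit of the pausing factor NELF, at 0.71 in Pe and 1.21 in Suc. Of the 2 phosphatases of the Polr2A tail, Ssu72 was called in both conditions, at 1.27 in Pe and 1.59 in Suc, and Fcp1 in neither, at -0.24 in Pe and -0.42 in Suc. Polr2A was higher than every gene of these lists in the mean of the 4 profiles.

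**Figure D5:**
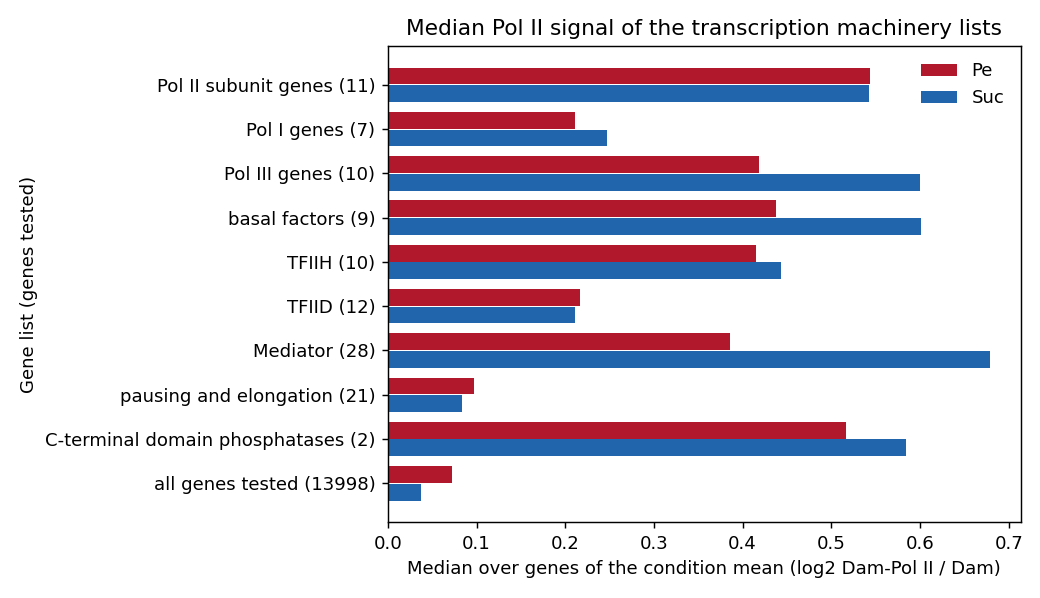
Median over the genes of each list (number tested in brackets) of the mean log2 of Dam-Pol II signal over Dam signal in Pe and Suc (x axis). The 11 tested Pol II subunit genes have a median of 0.54 in both conditions, and all 13998 genes tested have 0.07 in Pe and 0.04 in Suc.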

How the data were processed

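The deposited values per GATC fragment were taken as log2 of Dam-Pol II signal over Dam signal from their range and sign. The log base, the aligner and the scaling used by the authors are not given in the sources used. The genome build is BDGP 6, per the submitters' processing notes. Each of the 4 profiles was matched by name to a condition and replicate, although the file of Suc replicate 2 is numbered 3 in its track name. The labels call the replicates biological. Depth is unknown, so counting error could not be given. The 28 mitochondrial fragments were left out. Genes were placed with RefSeq's Release 6 gene table, used here without exons or strand, and 77.3% of tested genes share a fragment with another gene.

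Of 15941 genes 14094 overlapped 3 or more fragments. After 96 genes at 0 throughout were removed, 13998 entered limma 3.58.1 in R 4.3.3. The fit held all 4 profiles, a shared spread and a prior variance that followed fragment number. Condition means were tested against 0 one-sided and Pe minus Suc two-sided, with Benjamini-Hochberg adjustment over all genes at 0.05. A permutation of 2 against 2 profiles cannot give a two-sided p under 0.333. Inside minus flanks needed 3 inside fragments and 2 in each 2 kb flank. Fragments with a value other than 0 in any profile were tested in the same way, 338828 in all. The fits were also run on simulated profiles of independent normal values, to check that an added shift of 2 was recovered. Adjacent fragments of the data are correlated, so that run does not measure the error of the calls. Python 3.11.15, pandas 2.3.3 and numpy 2.4.6 gave the gene values, and matplotlib 3.10.9 the figures.

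The members, lists, markers and tests were chosen with earlier results of these data known. Genes named in the text are the members, their overlapping genes and neighbours within 2 kb, the 10 largest excesses over the flanks, the 5 genes nearest to Polr2A, and called, highest or lowest genes of each list, of which 1 is not reported here. Genes named outside this rule are said to be so where they appear. Alternatives were other scalings, fragment filters, gene values, flanks and prior variances, a replicate block and each profile left out.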

Additional observations from a re-analysis of the deposited data

How the results depend on the processing

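In each alternative fitted, 0 subunit genes differed between Pe and Suc. The count of subunit genes called occupied in Pe, 3 beside 1046 of all genes, was 9 beside 4408 after quantile normalization, 7 beside 3088 after median and MAD scaling, 1 of 3 testable beside 303 with at least 10 fragments, 0 beside 0 with the median of the fragments, 0 of 9 beside 95 with fragments of 1 gene, and 0 to 8 beside 0 to 3320 with a profile left out. The count in Suc, 6 beside 2975 of all genes, was 3 beside 1845 after median and MAD scaling, 1 of 3 beside 1628 with at least 10 fragments, 2 beside 1003 with the median of the fragments, and 0 to 6 beside 0 to 3953 with a profile left out. The 4 genes above their flanks, beside 1249 of all genes, became 1 of 5 beside 299 with 1 kb flanks, 1 beside 625 with the median of the fragments, 1 of 4 beside 961 with fragments of at least 100 bp (chosen after seeing the data), and 0 to 2 beside 308 to 957 with a profile left out. The excess at Polr2A, 0.91, was not called after median and MAD scaling (0.99), with the median of the fragments (0.85) or with a minimum of 1 fragment (0.91), and ranged from 0.61 to 1.21 with a profile left out. With 5 kb flanks it was 1.43 and called. The 21 occupied fragments inside Polr2A became 35 after quantile normalization, 0 when fragments at 0 were included, 11 of at least 100 bp, and 0 to 0 with a profile left out. No subunit gene could be fitted with flank fragments that overlap no gene, and Polr2A could not be fitted with 1 kb flanks. The cause of these changes was not tested, apart from the smaller numbers of genes or profiles given.

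Samples of the same replicate number deviated together (correlation 0.285), but with 2 pairs the numbers are not shown to pair the samples. With the replicate block 5 subunit genes were called occupied in Pe and 6 in Suc, beside 3300 and 4019 of all genes, 4 were above their flanks, 35 fragments inside Polr2A were occupied, and the excess at Polr2A remained 0.91 and called.

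Some signs turned. Pe minus Suc became 0.19 at Polr2A, 0.069 at Polr2D and 0.044 at Polr2L after quantile normalization. After median and MAD scaling it became 0.55 at Polr2A, 0.074 at Polr2D, 0.075 at Polr2I and 0.10 at Polr2L. With the median of the fragments it became -0.027 at Polr2B, 0.043 at Polr2D, 0.055 at Polr2E, -0.0063 at Polr2G and 0.078 at Polr2L. It was 0.034 at Polr2L with an unweighted mean and -0.081 at Polr2G with fragments of 1 gene, where the Suc value of Polr2B was -0.0029. Inside minus flanks was 0.10 at Polr2D and 0.25 at Polr2H with 5 kb flanks, -0.0089 at Polr2J with 1 kb flanks, 0.0041 at Polr2D with fragments of at least 100 bp, and 0.26 at Polr2D, 0.067 at Polr2E and 0.45 at Polr2H with edge fragments counted as inside. With a profile left out, Pe minus Suc ranged from -0.56 to 0.15 at Polr2A, from -0.021 to 0.33 at Polr2B, from -0.16 to 0.46 at Polr2C, from -0.46 to 0.29 at Polr2D, from -0.41 to 0.13 at Polr2E, from -0.31 to 0.20 at Polr2F, from -0.11 to 0.22 at Polr2G, from -0.025 to 0.13 at Polr2H, from -0.14 to 0.24 at Polr2J and from -0.23 to 0.029 at Polr2L. The Suc value ranged from -0.11 to 0.24 at Polr2B and from -0.064 to 0.44 at Polr2F, and inside minus flanks from -0.26 to 0.097 at Polr2E and from -0.35 to 0.014 at Polr2H.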
